A study of Mus musculus with 27 samples.

Results

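Mouse epiblast stem cells (EpiSCs), the primed state of pluripotency, were compared with mouse embryonic stem cells (mESCs), the naive state, by bulk RNA sequencing. The comparison used every library that the labels name as EpiSCs or mESCs, which were 2 of each, and these 4 are among the 27 samples and 19 bulk RNA libraries of the series. Of the 23604 genes in the table, 12513 reached 1 FPKM in 2 libraries of the fit and were tested. The series was built around fPSCs, formative pluripotent stem cells, and holds RNA, chromatin and methylation data of them, with mESCs, EpiLCs (epiblast-like cells made from mESCs) and EpiSCs as references. The mESCs were labelled WT and grown without feeders on gelatin (0.2%) in N2B27 with 2i/lif, that is PD035901 (1 uM), an inhibitor of the kinase MEK, Chir99021 (3 uM), an inhibitor of the kinase GSK3, and hLIF (1000 units/ml). The EpiSCs were also labelled WT and grown on mouse embryonic fibroblasts (MEFs) that mitomycin C had stopped from dividing, in N2B27 with KSR (15%), Activin A (20 ng/ml), bFGF2 (12 ng/ml) and XAV939 (5 uM), which blocks Wnt signalling through tankyrase. The EpiLCs, used here only for reference, had KSR at 1% with Activin A at 20 ng/ml and bFGF2 at 12 ng/ml. Medium and feeders changed together with the state, so their parts in any difference cannot be told apart, and the line, strain and sex of the EpiSCs, and so whether the line changed as well, are not in the labels used here. Nothing in the labels says that the replicates were separate cultures. The p-values therefore measure only the spread between libraries of a group, pooled over the 13 libraries of the fit. That includes the spread among fPSCs of different lines and passages.

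Naive mESCs stand for the epiblast of the blastocyst before implantation. EpiSCs stand for a later epiblast, and the study likens them to the anterior part of the primitive streak, during gastrulation. Naive cells are held by LIF, which acts through STAT3, and by blocking MEK and GSK3, and they run a network of transcription factors that includes Esrrb, Klf4, Tfcp2l1 and Nanog. Primed cells depend on FGF and Activin, switch most of that network off while keeping Pou5f1 (Oct4), and transcribe some genes of the primitive streak and of the early lineages at a low level.

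The 4 libraries were alike in breadth but not in every class of RNA. They listed 10677 to 10933 genes at 1 FPKM or more, with sums of 326334 to 414727 FPKM. The files hold no counts and the absolute depth is unknown. From the step that a single fragment makes in the lowest values, mESCs replicate 2 was about 1.46 times as deep as mESCs replicate 1, and the EpiSC libraries were 0.919 and 1.03 times as deep, estimates that rest on 65 to 166 genes. The median absolute log2 difference was 0.24 between the mESC libraries and 0.20 between the EpiSC libraries, against 0.76 between the group means. RNAs without a poly(A) tail, such as histone and small nuclear RNAs, summed to 3174 FPKM in one mESC library and to 6207 FPKM in the other, but to 322 and 343 FPKM in EpiSCs. Of the 137 tested members of that list 39 were called lower in EpiSCs and 0 higher. Over all genes tested 24.7% were called lower and 23.1% higher. The median change of the list was -0.87, and -0.47 without mESCs replicate 2. The Y-linked Eif2s3y, a translation factor subunit, was at 27.4 and 35.8 FPKM in mESCs and at 0.0182 and 0.0298 FPKM in EpiSCs. Xist, the RNA that coats the inactive X chromosome and a gene chosen after its values were seen, was at 0.406 and 0.474 FPKM in mESCs and at 5.96 and 7.11 FPKM in EpiSCs, so the mESC and EpiSC libraries also differ in sex-linked transcripts. Eif2s3y ranged from 0 to 21.5 FPKM in the 7 long-term fPSC libraries, and the part of the cell line in any of these values was not tested.

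Differences were found across the transcriptome. At a Benjamini-Hochberg adjusted p under 0.05 in limma and a fold of at least 1.5, 5980 of 12513 genes (47.8%) were called. Of these 2888 (23.1% of the genes tested) were higher in EpiSCs and 3092 (24.7%) were lower. Values of the EpiSC libraries lay wholly above or wholly below those of the mESC libraries for 80.9% of the genes tested, so a lack of overlap alone says little about a gene. The median gene stood at -0.09 on the log2(FPKM + 1) scale. Scaling the libraries to an equal sum of FPKM moved that median to 0.14 and the share of calls that were higher from 48.3% to 59.5% (3586 higher and 2440 lower), so small changes in either direction depend on the scaling. Leaving out 1 library left 4013 to 4724 calls, the fewest without mESCs replicate 2. Removing the collagen, smooth muscle and fibroblast lists, which hold 49 tested genes, left 2842 higher and 3091 lower. In bulk RNA, fewer cells of a kind and less RNA per cell cannot be told apart.

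**Figure D1:**
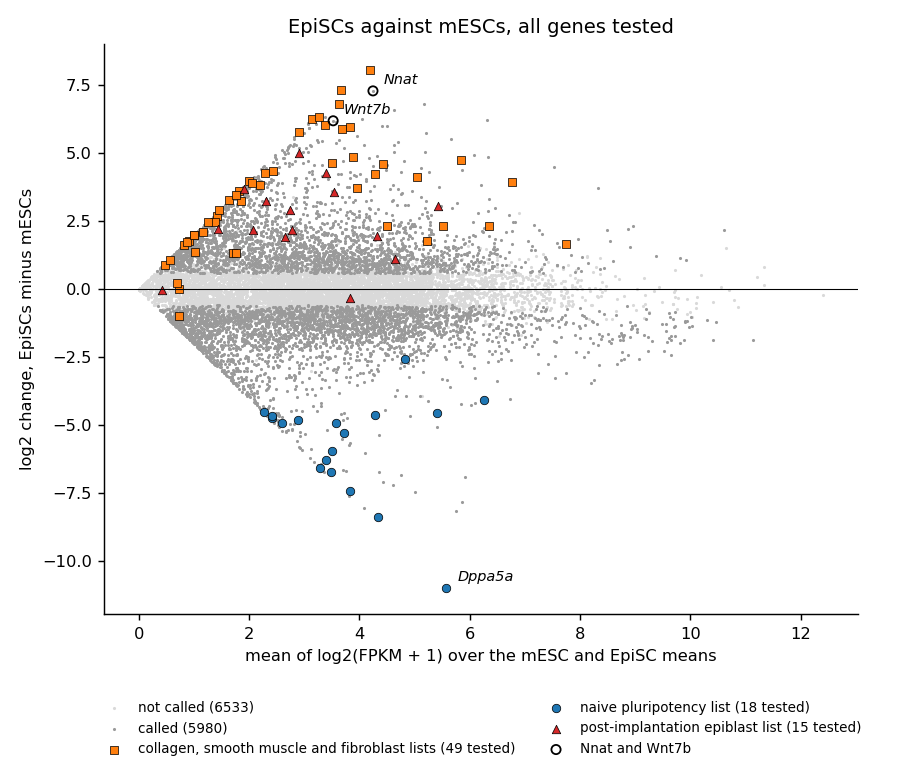
Log2 change of EpiSCs against mESCs (vertical axis, log2(FPKM + 1) scale) by mean level (horizontal axis, same scale) for the 12513 genes tested, with 5980 called genes in dark grey, 6533 others in light grey, and the naive, post-implantation and feeder-related lists marked. All 18 naive genes lie below zero, with Dppa5a lowest at -10.99, and the highest squares, Tagln and Acta2, belong to the smooth muscle list.

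Nnat, Wnt7b and Dppa5a, taken as markers of the comparison, each separated the states by a wide gap. The study names Wnt7b among genes higher in EpiSCs than in mESCs and fPSCs, with T, Sox1, Snai1 and Runx1, described below. For these genes the direction is not independent evidence. The upstream sequence of Nnat is shown because its promoter was methylated in the fPSC data described with the promoters, although the gene rose in EpiSCs. It is the 200 bases before the start of transcription in mm9, chr2:157385614-157385813 (plus strand), read 5′ to 3′ on the strand of the gene, with every CG in capitals.
Nnat: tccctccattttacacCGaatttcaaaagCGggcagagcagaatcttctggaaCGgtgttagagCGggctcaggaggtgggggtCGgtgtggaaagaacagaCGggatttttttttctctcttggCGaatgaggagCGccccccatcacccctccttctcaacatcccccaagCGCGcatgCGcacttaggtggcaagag
The stretch held 11 CG, against a median of 13 over 10884 genes, of which 98.5% held at least 1.

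Dppa5a, which encodes an RNA-binding protein of pluripotent and germ cells, was at 1805 and 2532 FPKM in the mESC libraries and at 0 and 0.108 FPKM in the EpiSC libraries. It fell by 10.99 on the log2 scale (SE 0.37, adjusted p = 1.62e-10), the largest change in either direction among the named genes. It was still at 307 and 654 FPKM in EpiLCs, while the 7 long-term fPSC libraries ranged from 0 to 0.842 FPKM.

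Nnat, an imprinted gene for a small membrane proteolipid, was at 0.651 and 0.383 FPKM in mESCs and at 237 and 237 FPKM in EpiSCs, a rise of 7.30 (SE 0.83, adjusted p = 1.20e-05). Its mean in EpiLCs was 6.92 FPKM and its median in fPSCs 6.87 FPKM, so it was already above mESCs in both and far below EpiSCs. Wnt7b, a secreted Wnt ligand, was at 0.517 and 0.141 FPKM in mESCs and at 74.2 and 124 FPKM in EpiSCs, a rise of 6.20 (SE 0.21, adjusted p = 1.93e-10). EpiLCs (mean 0.185 FPKM) and fPSCs (median 0.124 FPKM) were as low as mESCs for Wnt7b.

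The naive network was down as a whole: 18 of 18 genes of the naive list were called lower in EpiSCs, with a median change of -4.90 against -0.09 for all genes tested. Without either mESC library 12 of them still reached the level for testing. The others passed the filter through the mESC libraries, where they are high, so their direction is not evidence. Zfp42 (Rex1), Nanog, Klf2, Klf4, Klf5, Jam2, Esrrb, Nr5a2 and Tfcp2l1 are on the study's own panel of naive genes, so for them the count is not independent evidence of a direction. Zfp42, a zinc finger protein, was at 347 and 384 FPKM in mESCs and at 0.172 and 0.0711 FPKM in EpiSCs, a fall of 8.35 on the log2 scale (SE 0.18, adjusted p = 5.55e-12). Esrrb, an orphan nuclear receptor that responds to GSK3 inhibition, was at 262 and 121 FPKM in mESCs and at 0.0322 and 0.0667 FPKM in EpiSCs. Tcl1, an activator of the kinase Akt, was at 101 and 88.6 FPKM in mESCs and listed at 0 in both EpiSC libraries. Dppa3 (Stella), which protects maternal methylation in the zygote, was also listed at 0 in both, with 56.4 and 194 FPKM in mESCs. All of these genes were near 0 in EpiSCs. Their lack of overlap between the states was a condition of naming them, and it held for 80.9% of all genes tested.

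Of the naive genes that follow, Nanog, Klf5 and Klf2 kept some RNA, while Klf4 and Prdm14 kept little. Nanog, the homeodomain factor shared by naive and later epiblast, was at 284 and 345 FPKM in mESCs and at 19.6 and 15.7 FPKM in EpiSCs, a fall of 4.08 on the log2 scale (SE 0.21, adjusted p = 6.94e-09). Klf5, a Krüppel-like factor, was at 82.4 and 55.1 FPKM against 10.97 and 10.2 FPKM, the smallest change of the list at -2.56 (adjusted p = 2.30e-03). Klf2 was at 223 and 169 FPKM in mESCs against 4.62 and 11.5 FPKM in EpiSCs, where the libraries differed by more than a factor of 2. Klf4 went from 85.6 and 76.0 FPKM to 0.898 and 1.35 FPKM. Prdm14, which represses FGF receptor signalling and de novo methylation, stood at 25.9 and 25.3 FPKM in mESCs and at 0.0295 and 0.106 FPKM in EpiSCs.

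For the naive list the EpiSCs were close to the other post-naive cells: the median change was -0.19 against EpiLCs and 0.04 against fPSCs, comparisons that share the EpiSC libraries with the one above. Of all genes tested, 20.4% were called higher and 15.5% lower in EpiSCs than in EpiLCs. Against that median, Nanog was higher in EpiSCs than in EpiLCs by 1.00 and lower than in fPSCs by 1.90 on the log2 scale.

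**Figure D2:**
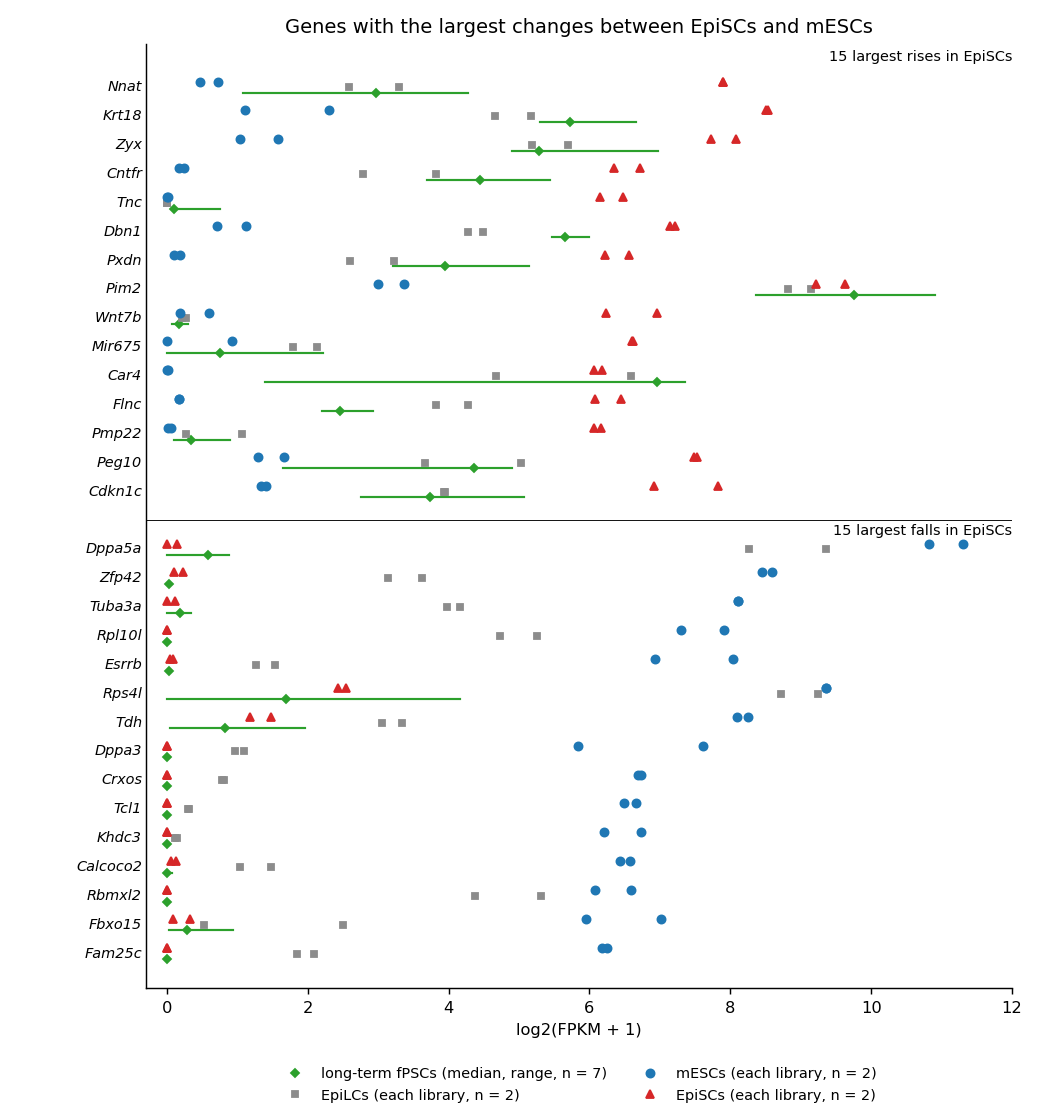
Level of the 15 genes that rose most and the 15 that fell most in EpiSCs, outside the collagen, smooth muscle, fibroblast and poly(A)-less lists, on a log2(FPKM + 1) axis, with each mESC, EpiLC and EpiSC library as a point and the median and range of 7 long-term fPSC libraries as a line. Blue and red points do not cross within a gene, because only genes without overlap were chosen. For Tnc, Wnt7b and Pmp22 the EpiLC and fPSC points sit with mESCs, and for Car4 they reach the EpiSC points.

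The general pluripotency factors moved less and in both directions. Pou5f1, which all pluripotent cells need, was at 760 and 764 FPKM in mESCs and at 226 and 234 FPKM in EpiSCs, a fall of 1.73 on the log2 scale (SE 0.42, adjusted p = 4.68e-03). Sox2, its partner on DNA, was at 218 and 210 FPKM against 80.8 and 62.3 FPKM, a fall of 1.58. Of the 12 core genes 6 were lower, 3 higher and 3 not called, with a median of -0.76. Among all genes tested 24.7% were lower and 23.1% higher. Dppa4, a chromatin protein that works with Dppa2, was at 28.0 and 24.3 FPKM in mESCs and at 0.183 and 0.133 FPKM in EpiSCs, whereas EpiLCs averaged 60.5 FPKM. Tdgf1 (Cripto), the co-receptor of Nodal, was at 230 and 221 FPKM against 36.1 and 35.1 FPKM. Those that rose included Lin28a, which blocks the processing of let-7 microRNAs, and Utf1, a chromatin factor of pluripotent cells, though Utf1 was not called without mESCs replicate 2 (adjusted p = 0.273) or EpiSCs replicate 2 (adjusted p = 0.265). Lin28a was at 19.8 and 17.4 FPKM in mESCs and at 313 and 244 FPKM in EpiSCs, a rise of 3.83 (SE 0.45, adjusted p = 1.70e-05).

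Genes of the post-implantation epiblast were higher in EpiSCs than in mESCs but mostly not at their peak there. Of 15 genes 13 were called higher and 0 lower, with a median of 2.23. Otx2, Fgf5, Dnmt3b, Zic2, Zic5, Etv1, Etv4, Grhl2, Lin28b and Eras are on the study's own panel, so their direction is not independent evidence. Fgf5, an FGF ligand used to mark this stage, was at 0.0558 and 0.0191 FPKM in mESCs and at 10.3 and 14.7 FPKM in EpiSCs, a rise of 3.68 (SE 0.22, adjusted p = 3.36e-08). The same gene averaged 49.0 FPKM in EpiLCs and had a median of 93.1 FPKM in fPSCs. Pou3f1 (Oct6), a POU factor, rose from 0.467 and 0.149 FPKM to 35.7 and 47.7 FPKM, and Sox4, a Sox family factor, from 1.24 and 1.54 FPKM to 47.8 and 43.6 FPKM.

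The 2 genes not called were Otx2 and Grhl2. Otx2, a homeodomain factor that directs Pou5f1 to new sites on leaving the naive state, was at 16.2 and 13.3 FPKM in mESCs and at 15.4 and 8.6 FPKM in EpiSCs (log2 change -0.32, adjusted p = 0.483), with a mean of 51.2 FPKM in EpiLCs. Grhl2, a regulator of epithelial genes, was between 0.309 and 0.372 FPKM in all 4 libraries, and at a mean of 9.88 FPKM in EpiLCs. The median of the list was -1.02 against EpiLCs and -1.04 against fPSCs, again with the EpiSC libraries shared between comparisons.

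**Figure D3:**
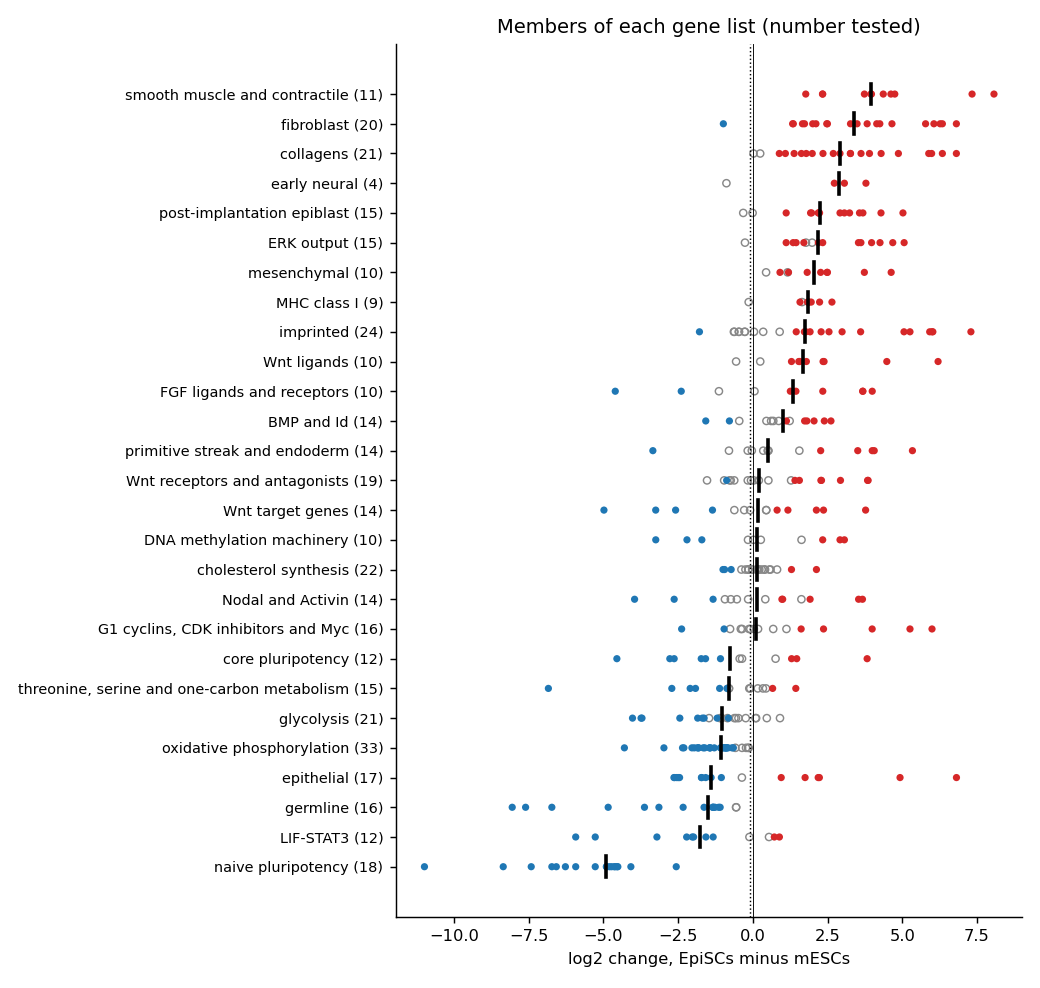
Log2 change of EpiSCs against mESCs for each tested member of the gene lists (horizontal axis, log2(FPKM + 1) scale), with called genes in red (higher) or blue (lower), others open, the median of a list as a black bar and the median of all genes tested as a dotted line. The naive and germline lists lie wholly or almost wholly to the left, the smooth muscle, mesenchymal and ERK lists to the right, and the Wnt target and epithelial lists on both sides.

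Of 14 tested primitive streak and endoderm genes, 5 were called higher (23.1% of all genes tested), 1 lower (24.7%) and 8 not called. The median of the list was 0.52. The outcome depended on which libraries entered the fit: with only mESCs and EpiSCs 8 of the list were tested, 6 higher and 1 lower, with a median of 2.89, since genes that had passed the filter through other libraries dropped out. T (Brachyury), a T-box factor of the streak and early mesoderm, was at 1.31 and 1.10 FPKM in mESCs and at 30.1 and 42.5 FPKM in EpiSCs, a rise of 4.06 (SE 0.53, adjusted p = 4.41e-05). Fgf8, a ligand needed for cells to leave the streak, rose from 0.330 and 0 FPKM to 15.1 and 20.0 FPKM. Foxa2, a forkhead factor of the anterior streak and endoderm, rose from 0 and 0.0404 FPKM to 12.1 and 9.33 FPKM. Hand1, a bHLH factor of lateral and extraembryonic mesoderm, was at 0.128 and 0.0480 FPKM in mESCs and at 32.7 and 56.8 FPKM in EpiSCs, a rise of 5.34 (SE 0.20, adjusted p = 3.51e-10), and stayed at a mean of 0.130 FPKM in EpiLCs and a median of 0.044 FPKM in fPSCs. The gene that fell was Gsc (Goosecoid), a homeodomain factor of the organizer, from 12.8 and 12.7 FPKM to 0.119 and 0.643 FPKM (adjusted p = 0.0213), a call that was lost without any 1 of the 4 libraries (adjusted p from 0.0617 to 0.0996).

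Other streak and endoderm genes gave no call. Eomes, a T-box factor needed for endoderm, was at 4.30 and 1.84 FPKM in mESCs and at 3.802 and 5.37 FPKM in EpiSCs (adjusted p = 0.29), with overlapping libraries. Cer1, a secreted Nodal and BMP antagonist, was listed at 0 in both mESC libraries and at 2.07 and 1.82 FPKM in EpiSCs (adjusted p = 0.39), and was called with a pseudocount of 0.1 and in fits without fPSCs. The list stood lower in EpiSCs than in fPSCs, with a median of -1.80 in that comparison, which uses the same EpiSC libraries.

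Early neural genes were mostly too low to test: 4 of 14 passed the filter, of which 3 were called higher. Sox1, a Sox factor of the neural plate, was at 1.48 and 0.686 FPKM in mESCs and at 19.6 and 13.2 FPKM in EpiSCs. Olig3, a bHLH factor of the dorsal neural tube, went from 0.478 and 1.53 FPKM to 11.02 and 12.6 FPKM, and was listed at a mean of 0 in EpiLCs. Nes, an intermediate filament protein of neural progenitors, rose from 6.40 and 2.33 FPKM to 68.6 and 66.4 FPKM. A gene could pass the filter through the EpiSC libraries alone, so for lists with few tested members the counts describe only the genes that passed.

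Most Wnt ligands that could be tested were higher in EpiSCs, while targets of the pathway went both ways. Of 19 ligands 10 were tested, 8 were called higher and 0 lower, with a median of 1.68. With no filter on low values all 19 entered, 9 were higher and 10 not called, and the median was 0.25. Without either EpiSC library 4 were tested and 2 were called higher, with 1 called lower without EpiSCs replicate 2. Wnt7b was the most abundant. Wnt8a, a ligand of the streak, was listed at 0 in both mESC libraries and at 18.6 and 24.6 FPKM in EpiSCs, and Wnt3, the ligand that starts the streak, rose from 0.0636 and 0.215 FPKM to 3.73 and 6.11 FPKM. Among receptors and antagonists 7 of 19 rose and 1 fell, where 23.1% of all genes tested were called higher and 24.7% lower. The median of these 19 was 0.20, and -0.03 to 0.48 when 1 library was left out. With only mESCs and EpiSCs in the fit 8 of 17 were higher and 5 lower, and 8 and 5 were also the counts with EpiLCs added or with EpiLCs and the first deposited fPSC libraries added. Fzd2, a Frizzled receptor, rose from 2.34 and 2.12 FPKM to 41.2 and 50.9 FPKM, and Porcn, the acyltransferase that Wnt secretion needs, from 0.743 and 0.275 FPKM to 4.76 and 8.08 FPKM. Sfrp2, a secreted Wnt binder, rose from 1.21 and 0.551 FPKM to 26.8 and 24.3 FPKM.

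Of 14 Wnt target genes 5 were called higher and 4 lower, with a median of 0.18, against 23.1% and 24.7% of all genes tested. Notum, a lipase that inactivates Wnt proteins and a feedback target, was at 33.7 and 34.0 FPKM in mESCs and at 0.0928 and 0.113 FPKM in EpiSCs, a fall of 4.98 on the log2 scale (SE 0.12, adjusted p = 6.99e-12). Cdx1, a caudal homeodomain factor, fell from 13.0 and 5.75 FPKM to 0.0433 and 0 FPKM. Axin2, a scaffold of the complex that destroys beta-catenin, was at 23.2 and 16.3 FPKM against 5.82 and 8.46 FPKM, a fall called in the full fit but not without mESCs replicate 1 (adjusted p = 0.105) or EpiSCs replicate 1 (adjusted p = 0.106) or at an equal sum of FPKM (adjusted p = 0.0664). Lef1, a transcription factor that beta-catenin binds, went the other way, from 1.52 and 1.26 FPKM to 32.5 and 30.9 FPKM, a rise of 3.78 (adjusted p = 1.97e-04), and Ccnd1, cyclin D1, from 60.2 and 64.5 FPKM to 293 and 361 FPKM. The 4 calls of lower targets were 1 without either mESC library and 2 without EpiSCs replicate 1, and the 5 of higher targets were 3 without either EpiSC library.

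FGF signalling genes differed in which ligand was present. Fgf4, the ligand that naive cells make, was at 97.7 and 92.5 FPKM in mESCs and at 2.88 and 3.03 FPKM in EpiSCs, a fall of 4.60 on the log2 scale (SE 0.57, adjusted p = 2.78e-05). Fgf3 also fell, from 8.85 and 4.497 FPKM to 0.347 and 0.454 FPKM, while Fgf5, Fgf8 and Fgf15 rose, the last from 0.472 and 0.0940 FPKM to 18.4 and 12.6 FPKM. Both Fgfr1 and Fgfr2, receptors for these ligands, were called higher, and of 10 tested genes of the list 6 rose and 2 fell, or 7 and 2 of 15 with no filter on low values. The call of Fgfr1 was lost without mESCs replicate 2 (adjusted p = 0.0935) or EpiSCs replicate 2 (adjusted p = 0.119), and that of Fgfr2 without EpiSCs replicate 1 (adjusted p = 0.0532).

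Genes known as outputs of ERK, the kinase downstream of MEK, were higher in EpiSCs: 12 of 15 were called higher and 0 lower, with a median of 2.19, and 8 were called without EpiSCs replicate 2. Dusp6, a phosphatase that acts on ERK, was at 2.39 and 2.58 FPKM in mESCs and at 33.2 and 46.7 FPKM in EpiSCs, a rise of 3.54 (SE 0.29, adjusted p = 5.86e-07). Dusp4, a related phosphatase, rose from 0.803 and 0.104 FPKM to 36.8 and 58.0 FPKM, and Spry4, an inhibitor of receptor kinase signalling, from 0.555 and 0.151 FPKM to 14.4 and 16.5 FPKM. Fosl1, an AP-1 subunit, was at 0.214 and 0.0722 FPKM against 13.2 and 21.7 FPKM. Etv5, an ETS factor on the same list, was at 121 and 86.3 FPKM in mESCs and at 76.8 and 94.1 FPKM in EpiSCs, with overlapping libraries (log2 change -0.26, adjusted p = 0.735). The mESC medium contained a MEK inhibitor and the EpiSC medium bFGF2, and the part of either in these differences was not tested.

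The LIF and STAT3 genes were mostly lower. Of 12 genes 8 were lower and 2 higher, with a median of -1.78, and 0 to 1 were called higher when a library was left out. Socs3, a feedback inhibitor that STAT3 induces, was at 79.3 and 66.1 FPKM in mESCs and at 13.0 and 16.9 FPKM in EpiSCs, a fall of 2.21 on the log2 scale (SE 0.25, adjusted p = 1.36e-05), yet EpiLCs averaged 0.930 FPKM. Stat3 itself was at 23.2 and 17.0 FPKM against 7.40 and 7.24 FPKM. Lifr, a subunit of the LIF receptor, fell from 6.95 and 2.18 FPKM to 0.374 and 0.181 FPKM, while Il6st (gp130), the shared subunit, was at 13.6 and 8.90 FPKM against 10.01 and 10.3 FPKM and was not called. Cntfr, a receptor subunit for a cytokine of the same family and not on the list, was at 0.125 and 0.188 FPKM in mESCs and at 80.7 and 105 FPKM in EpiSCs, a rise of 6.33 (SE 0.56, adjusted p = 1.20e-06).

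Of 14 Nodal and Activin genes 5 rose and 3 fell, with a median of 0.13, and of -0.02 without mESCs replicate 2. Shares over all genes tested, for this list and the BMP list below, were 23.1% higher and 24.7% lower. The Nodal and Activin counts are not far from them. Nodal, the ligand, was at 35.6 and 30.6 FPKM in mESCs and at 10.2 and 15.4 FPKM in EpiSCs, a fall of 1.33 on the log2 scale that was not called without EpiSCs replicate 1 (adjusted p = 0.0746). Pcsk6, a protease that matures Nodal, fell from 33.5 and 21.0 FPKM to 0.270 and 1.48 FPKM, and Furin, a protease with the same role, rose from 10.8 and 3.96 FPKM to 79.7 and 97.7 FPKM. Lefty1, a Nodal antagonist, was at 22.2 and 16.1 FPKM in mESCs and at 56.3 and 64.8 FPKM in EpiSCs, which did not overlap but were not called (adjusted p = 0.11), although they were called in fits without the fPSCs. In the BMP list 6 of 14 rose and 2 fell, against 3 and 1 without mESCs replicate 2, 5 and 0 without mESCs replicate 1, 4 and 1 without EpiSCs replicate 1, and 9 and 1 with libraries scaled to an equal sum. Nog (Noggin), a BMP antagonist, rose from 0.162 and 0.0565 FPKM to 4.96 and 4.68 FPKM, and Id3, an inhibitor of bHLH factors that BMP induces, from 2.98 and 2.52 FPKM to 23.9 and 20.1 FPKM, the latter not called without mESCs replicate 2 (adjusted p = 0.0525).

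Adhesion and cytoskeleton genes showed a split epithelial list. Cdh1 (E-cadherin), the junction protein of epithelia, was at 184 and 133 FPKM in mESCs and at 26.8 and 29.0 FPKM in EpiSCs, a fall of 2.45 on the log2 scale (SE 0.21, adjusted p = 8.32e-07), with a mean of 187 FPKM in EpiLCs and a median of 160 FPKM in fPSCs. Cldn4, a tight junction claudin, fell from 69.4 and 67.9 FPKM to 8.06 and 12.8 FPKM, and St14, a membrane protease of epithelia, from 62.6 and 50.9 FPKM to 7.22 and 10.8 FPKM. Of the 17 genes 10 were lower and 6 higher, with a median of -1.40, against 24.7% lower and 23.1% higher among all genes tested. Esrp1, Cldn6 and Cldn7 are on the study's panel of epithelial genes, and 2 of them, Esrp1 and Cldn6, rose here.

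The largest rises of the epithelial list were keratins. Krt18, a keratin of simple epithelia, was at 3.93 and 1.16 FPKM in mESCs and at 370 and 363 FPKM in EpiSCs, a rise of 6.82 (SE 0.42, adjusted p = 4.14e-08). Krt8, its pairing partner, rose from 14.7 and 8.19 FPKM to 353 and 376 FPKM, and Krt19 from 6.71 and 9.77 FPKM to 37.5 and 46.3 FPKM. The call of Krt19 was lost without mESCs replicate 1 (adjusted p = 0.0624) or EpiSCs replicate 2 (adjusted p = 0.0599).

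Of the 10 mesenchymal genes 8 were higher and 0 lower, with a median of 2.05, and without either EpiSC library 7 were tested and 4 called. Cdh2 (N-cadherin) was at 0.450 and 0.101 FPKM in mESCs and at 30.6 and 30.04 FPKM in EpiSCs. Vim (vimentin), an intermediate filament protein, rose from 95.5 and 79.0 FPKM to 1107 and 1232 FPKM. Snai1, a repressor of Cdh1, rose from 2.12 and 1.503 FPKM to 8.30 and 18.6 FPKM, and Zeb2, another, from 0.00169 and 0.000816 FPKM to 5.19 and 4.07 FPKM. Fibroblasts transcribe several of these genes too, and the feeders were present in the EpiSC cultures only.

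Collagen, smooth muscle and fibroblast genes are therefore given apart. Of the collagens 19 of 21 tested were higher and 0 lower (median 2.92), of the smooth muscle genes 11 of 11 were higher (median 3.97), and of the fibroblast genes 19 of 20 were higher and 1 lower (median 3.38). With no filter on low values, 20 of 44 collagens were higher and 24 not called (median 0.44), 13 of 15 smooth muscle genes were higher (median 3.74) and 20 of 26 fibroblast genes were higher (median 2.29). Without either EpiSC library, 9 or 8 collagens and 13 fibroblast genes still reached the level for testing, of which 6 and 11 were higher. The collagens summed to 21.0 and 34.1 FPKM in the mESC libraries and to 580 and 831 FPKM in the EpiSC libraries. Smooth muscle genes summed to 97.6 to 118 FPKM in mESCs and to 1555 to 1824 FPKM in EpiSCs, and the fibroblast list to 133 to 140 FPKM against 1003 to 1311 FPKM. EpiLCs (collagens 114 to 148 FPKM) and fPSCs (57.7 to 69.8 FPKM) lay between mESCs and EpiSCs for the collagens. For the fibroblast list both lay below the mESCs, at 84.3 to 87.9 FPKM in EpiLCs and 49.99 to 97.6 FPKM in fPSCs. Smooth muscle genes summed to 136 to 195 FPKM in EpiLCs, above the mESCs, and to 98.6 to 131 FPKM in fPSCs, overlapping them.

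Tagln, an actin-binding protein of smooth muscle, had the largest rise of these lists, from 0.164 and 0.0629 FPKM to 276 and 322 FPKM (log2 change 8.07, SE 0.35, adjusted p = 1.64e-09). Acta2, smooth muscle actin, was listed at 0 in both mESC libraries and at 161 and 160 FPKM in EpiSCs. Col1a1, a chain of type I collagen, rose from 0.214 and 0.125 FPKM to 111 and 153 FPKM, Col1a2, its other chain, from 0.0337 and 0.106 FPKM to 72.6 and 102 FPKM. Bgn, a matrix proteoglycan, was listed at 0 in mESCs and at 70.4 and 82.2 FPKM in EpiSCs.

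Of 10 genes taken as defining markers of fibroblasts, 7 were called higher in EpiSCs and 3 were too low to test, but their levels spanned a wide range. Col1a1 and Col1a2, the chains of type I collagen, were near 0 in mESCs and at 111 and 153 FPKM and at 72.6 and 102 FPKM in the EpiSC libraries. Col3a1 was at 8.66 and 8.68 FPKM in EpiSCs, Pdgfrb at 3.67 and 4.67 FPKM, Thy1 at 4.63 and 4.01 FPKM, Twist2 at 3.51 and 6.06 FPKM and Dcn at 2.82 and 1.88 FPKM, and these 5 were called higher too. The 3 not tested were Lum at 0.590 and 0.501 FPKM, Postn at 0.274 and 0.798 FPKM and Prrx1 at 0.398 and 1.02 FPKM. Of the listed genes tested, 19 of 21 collagens, 7 of 11 smooth muscle genes and 16 of 20 fibroblast genes were higher in EpiSCs replicate 2 than in replicate 1, against 47.0% of all genes tested. RNA of the feeders and RNA of the EpiSCs cannot be told apart in these libraries, and how much of the rise in any gene is of either was not tested.

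**Figure D4:**
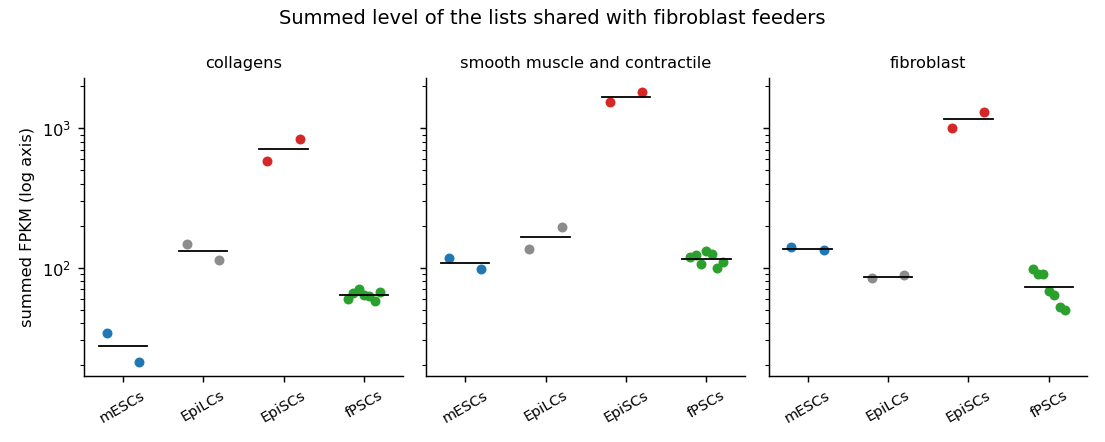
Summed FPKM (vertical log axis) of the collagen, smooth muscle and fibroblast lists in each mESC, EpiLC, EpiSC and long-term fPSC library (points), with horizontal bars at the group means. The EpiSC libraries stand above every other library in all 3 panels, at 580 to 831 FPKM for collagens against at most 148 FPKM elsewhere.

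The 15 largest rises were named outside the collagen, smooth muscle and fibroblast lists, whose members include larger ones, and other genes among the 15 follow. Being outside those lists does not exclude RNA of the feeders, whose part was not tested. Zyx, a focal adhesion protein, was at 2.00 and 1.05 FPKM in mESCs and at 211 and 269 FPKM in EpiSCs (log2 change 6.59), Dbn1, an actin-binding protein, at 1.18 and 0.638 FPKM against 147 and 140 FPKM, and Flnc, a filamin, at 0.133 and 0.126 FPKM against 66.5 and 85.9 FPKM. Tnc (tenascin C), a matrix protein, was at 0.00896 and 0 FPKM against 70.2 and 88.4 FPKM, and Pxdn, a matrix peroxidase, at 0.135 and 0.0735 FPKM against 73.9 and 93.7 FPKM. Tnc was near 0 in EpiLCs (mean 0.00266 FPKM) and fPSCs (median 0.0774 FPKM), while Zyx and Dbn1 were at 43.3 and 20.0 FPKM on average in EpiLCs. Pim2, a survival kinase, rose from 9.29 and 7.02 FPKM to 597 and 794 FPKM. It was at 449 and 567 FPKM in EpiLCs, which EpiSCs were not called different from (limma adjusted p = 0.603). In the fPSC libraries Pim2 ranged from 327 to 1913 FPKM, with a median of 864 FPKM. Car4, a membrane carbonic anhydrase, rose from 0.0121 and 0 FPKM to 71.3 and 65.9 FPKM with the widest error of the 15 (SE 1.52, adjusted p = 5.27e-03). In the fPSC libraries of the same fit Car4 ranged from 1.64 to 163 FPKM. Pmp22, a membrane protein of Schwann cells and fibroblasts, rose from 0.0406 and 0.0139 FPKM to 66.2 and 70.8 FPKM.

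Imprinted genes were among the largest rises. Of 24 tested 14 were higher and 1 lower, with a median of 1.75. Cdkn1c (p57), a cell cycle inhibitor transcribed from the maternal copy, was at 1.67 and 1.53 FPKM in mESCs and at 120 and 226 FPKM in EpiSCs. Peg10, a paternally transcribed gene derived from a retrotransposon, rose from 2.17 and 1.45 FPKM to 183 and 177 FPKM (log2 change 6.03, SE 0.87, adjusted p = 1.02e-04). Igf2, a paternally transcribed growth factor, rose from 0.138 and 0 FPKM to 35.2 and 45.1 FPKM, and H19, the maternally transcribed RNA beside it, from 0.190 and 0 FPKM to 73.4 and 57.6 FPKM. Mir675 lies within H19, so its rise of 6.15 is not a separate one. Grb10, an adaptor that restrains growth factor receptors, rose from 6.17 and 4.46 FPKM to 213 and 203 FPKM. Zrsr1, a splicing factor gene copy, was the one that fell, from 15.6 and 15.3 FPKM to 3.69 and 3.88 FPKM. Meg3, a maternally transcribed RNA, was at 41.8 and 41.8 FPKM in mESCs and at 40.8 and 29.0 FPKM in EpiSCs and was not called. Genes of both parental directions rose, and the total RNA of a locus does not tell which copy it came from. Nor does it tell RNA of EpiSCs from RNA of feeders.

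Germline genes were at or near 0 in EpiSCs. Of 16 tested genes 14 were lower and 0 higher, with a median of -1.49. Dazl, an RNA-binding protein of germ cells, was at 20.9 and 36.4 FPKM in mESCs and listed at 0 in both EpiSC libraries (log2 change -4.84, SE 0.24, adjusted p = 5.53e-09), with a mean of 4.27 FPKM in EpiLCs. Tuba3a, a tubulin of the testis, was at 276 and 275 FPKM against 0 and 0.0871 FPKM, and Rpl10l, a ribosomal protein copy used in the testis, at 156 and 240 FPKM against 0 in both. Hormad1, a meiotic chromosome protein, fell from 6.58 and 19.1 FPKM to 0 in both. Several of the abundant genes of this kind have near-identical copies (Tuba3a and Tuba3b, and Rpl10l, Rps4l and Rbmxl2 with the genes they were copied from), so counts may be split between them. Rps4l was at 658 and 657 FPKM in mESCs and at 4.83 and 4.38 FPKM in EpiSCs, with 419 and 604 FPKM in EpiLCs, and Rbmxl2 at 66.4 and 95.1 FPKM against 0 in both.

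Other large falls were of genes with varied roles. Khdc3, a maternal-effect gene of the oocyte, was at 72.6 and 106 FPKM in mESCs and at 3.1e-05 and 0.00321 FPKM in EpiSCs. Calcoco2, an autophagy receptor, fell from 85.2 and 94.1 FPKM to 0.0936 and 0.042 FPKM, and Fbxo15, an F-box gene used as a naive reporter, from 128 and 61.0 FPKM to 0.261 and 0.066 FPKM. Crxos was at 102 and 105 FPKM and Fam25c at 75.1 and 71.5 FPKM in mESCs, both listed at 0 in EpiSCs.

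Of 10 DNA methylation genes 3 were higher and 3 lower, where 23.1% of all genes tested were higher and 24.7% lower. The counts are not far from those shares, so the values below describe single enzymes and not the class. Dnmt3b, a de novo methyltransferase, was at 14.4 and 13.4 FPKM in mESCs and at 121 and 126 FPKM in EpiSCs, a rise of 3.06 (SE 0.23, adjusted p = 2.53e-07), with a mean of 661 FPKM in EpiLCs. Dnmt3a rose from 2.73 and 0.404 FPKM to 16.6 and 16.04 FPKM. Dnmt3l, the cofactor without catalytic activity, fell from 17.5 and 4.18 FPKM to 0.0416 and 0.0186 FPKM, whereas EpiLCs averaged 56.1 FPKM. Tet1 and Tet2, which oxidise methylcytosine, fell (Tet1 from 10.003 and 6.94 FPKM to 2.03 and 1.71 FPKM, Tet2 from 7.39 and 4.25 FPKM to 0.509 and 0.378 FPKM), and Tet3 rose from 1.15 and 0.454 FPKM to 10.7 and 5.85 FPKM. Dnmt1, the maintenance enzyme, was at 68.7 and 52.3 FPKM against 53.5 and 53.5 FPKM and was not called.

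Metabolic genes that were called were mostly lower in EpiSCs. Tdh, threonine dehydrogenase, which feeds one-carbon metabolism in naive cells, was at 272 and 303 FPKM in mESCs and at 1.80 and 1.26 FPKM in EpiSCs, a fall of 6.84 on the log2 scale (SE 0.47, adjusted p = 1.02e-07). Gcat, the next enzyme of that route, fell from 75.01 and 73.2 FPKM to 10.8 and 10.1 FPKM. The 15 genes of that list had a median of -0.80, and of -0.90 to -0.53 when 1 library was left out. Of them 6 were lower and 2 higher, where 24.7% of all genes tested were lower and 23.1% higher. Phgdh, which starts serine synthesis, was 1 of those higher, at 58.1 and 47.1 FPKM against 144 and 143 FPKM. Of 21 glycolysis genes 9 were lower and 0 higher (median -1.04, and -1.15 to -0.81 when 1 library was left out). In both lists the share called in either direction was near the 47.8% of all genes tested. Ldhb, a lactate dehydrogenase subunit, fell from 328 and 546 FPKM to 25.4 and 24.7 FPKM, and Hk1, a hexokinase, from 62.9 and 55.4 FPKM to 9.67 and 10.4 FPKM.

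Of the 33 oxidative phosphorylation genes 28 were lower and 0 higher (median -1.05). The call rate depended on single libraries and on scaling: 15 were lower without mESCs replicate 2, 11 without EpiSCs replicate 2 and 18 with libraries scaled to an equal sum. Atp5b, a subunit of ATP synthase, was at 1132 and 1110.0 FPKM in mESCs and at 604 and 505 FPKM in EpiSCs, and Cox6a1, a subunit of cytochrome oxidase, at 560 and 617 FPKM against 133 and 170 FPKM. Gapdh, a glycolytic enzyme often used for reference, was at 1325 and 1580.1 FPKM in mESCs and at 1635 and 1459.9 FPKM in EpiSCs, with overlapping libraries.

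The promoters of the genes that differ were then set beside the chromatin of fPSCs, the only cells with such files used here, so the marks describe neither mESCs nor EpiSCs. Promoters were matched for 10886 of the 12513 genes and had methylation values for 10847. A promoter was counted as methylated at a mean fraction of 0.5 or more within 1000 bp of the start, and H3K27me3, the mark of Polycomb repression, as strong in the top 10% of all promoters. The labels list 2 replicates for each mark, of which 1 file each was used. The study's methods combined ChIP replicates after alignment, and whether the methylation file pools them is not given in the sources used here. Intervals cover counting error over genes only.

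Of genes lower in EpiSCs 23.3% had a methylated promoter in fPSCs (95% Wilson interval 21.8 to 24.99%, n = 2610), against 13.5% of genes higher in EpiSCs (12.3 to 14.9%, n = 2624), 9.91% of those not called and 14.01% of all matched genes. The share rose with the size of the fall, from 10.5% for changes between -1 and 0 to 33.2% between -3 and -2 and 62.5% at -4 or below (n = 88), in steps chosen after the values were seen. On the other side it rose with the size of the rise, less steeply, from 9.41% between 0 and 1 to 15.4% between 2 and 3 and 21.8% above 4 (n = 133). Strong H3K27me3 went the other way: 14.9% of genes higher in EpiSCs (13.6 to 16.4%) against 7.83% of genes lower (6.87 to 8.92%) and 8.39% of all. It reached 22.6% for rises of more than 4, and was also 16.5% for falls of 4 or more.

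**Figure D5:**
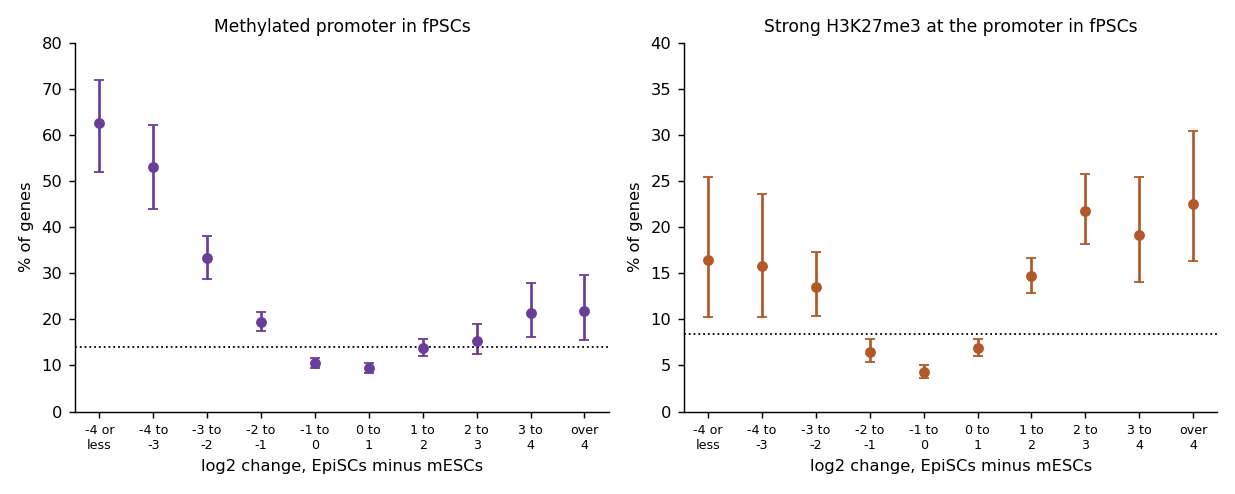
Share of genes (vertical axis, percent) whose promoter in fPSCs is methylated (left) or carries strong H3K27me3 (right), by the log2 change of EpiSCs against mESCs (horizontal axis), with 95% Wilson intervals and the share of all matched genes for reference. Methylation is highest at the largest falls, 62.5%, and H3K27me3 at the largest rises, 22.6%.

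The lists sat at different ends. All 16 tested germline genes had a methylated promoter, with a median fraction of 0.94, while of the naive genes 9 of 17 did and 5 of 17 carried strong H3K27me3. Dppa5a (0.88), Zfp42 (0.85), Esrrb (0.82) and Tcl1 (0.96) were methylated, and Klf2, Klf4 and Tbx3 were not methylated (0.14, 0.01 and 0.02) but in the top 10% for H3K27me3. Of the tested Wnt ligands 8 of 10 and of the streak genes 11 of 14 carried strong H3K27me3, including Wnt7b (methylated fraction 0.06), Hand1 (0.04) and T (0.02). Of the post-implantation genes, 0 of 13 carried either. Nnat, an imprinted gene, was methylated at 0.75 in fPSCs and Tnc at 0.92, and both rose in EpiSCs. Their promoters in EpiSCs were not examined, and the part of feeder RNA in Tnc was not tested.

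The upstream sequences of 2 methylated germline genes and of Hand1 are set out as before, 200 bases before the start in mm9 with every CG in capitals. They are examples of genes whose CG content differs. They are chr6:125236061-125236260 (minus strand) for Tuba3a, chr17:50432925-50433124 (minus strand) for Dazl and chr11:57646321-57646520 (minus strand) for Hand1.
Tuba3a: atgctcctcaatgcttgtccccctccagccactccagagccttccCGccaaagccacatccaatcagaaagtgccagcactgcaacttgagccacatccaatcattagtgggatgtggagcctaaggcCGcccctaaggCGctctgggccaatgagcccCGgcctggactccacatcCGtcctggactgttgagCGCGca
Dazl: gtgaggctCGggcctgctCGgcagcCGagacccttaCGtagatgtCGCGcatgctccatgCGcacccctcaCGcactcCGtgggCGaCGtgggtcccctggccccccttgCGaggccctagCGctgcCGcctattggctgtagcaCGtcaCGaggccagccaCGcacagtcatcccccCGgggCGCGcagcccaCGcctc
Hand1: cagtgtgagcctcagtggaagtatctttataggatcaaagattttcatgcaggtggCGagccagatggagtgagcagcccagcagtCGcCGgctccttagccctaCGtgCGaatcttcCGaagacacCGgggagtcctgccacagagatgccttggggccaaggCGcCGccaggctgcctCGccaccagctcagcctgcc
In these 200 bases Tuba3a held 7 CG, Dazl 21 and Hand1 10. The methylated fractions, means within 1000 bp of the start, were 0.96, 0.67 and 0.04 in that order. Methylation of the printed CG alone was not measured. The median was 13 CG for all genes and for genes higher in EpiSCs, 11 for genes lower, 6 for the 91 genes lower by 4 or more and 10 for the 133 higher by 4 or more.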

How the data were processed

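RNA was sequenced from 19 bulk libraries, and the submitters' processing notes name TopHat2 2.1.1, Cufflinks 2.1.1 and Bowtie2 2.2.2 with mm9. The authors deposited FPKM, a value per gene scaled by length and library size. The ChIP-seq files hold RPKM values that the authors computed over 100 bp bins, and bisulfite methylation was deposited as a fraction from 0 to 1. Of 23608 entries 4 were left out because their name was listed more than once. FPKM are not counts, so log2(FPKM + 1) was tested with limma 3.58.1 (R 4.3.3, trend, two-sided, Benjamini-Hochberg) in 1 fit of 13 libraries: 2 mESCs, 2 EpiLCs, 2 EpiSCs and 7 long-term fPSCs. The fPSC libraries, of several lines and passages, were fitted as 1 group. A gene was called at adjusted p under 0.05 and a fold of at least 1.5. Changes on this scale understate those of low genes, and a gene listed at 0 gives no fold bound. On simulated data with 200 changed genes of 12513, 24% of genes changed by 1 on the log2 scale were recovered, 63% at 1.5 and 83.5% at 2. In the data 5980 genes were called, and the adjusted p depends on the share of changed genes. These rates therefore do not give the recovery in the comparison of EpiSCs with mESCs. The genes named outside the lists are the 15 largest rises and 15 largest falls that were called, did not overlap between the groups and reached a mean of 10 FPKM, with 5 from the feeder-related lists, and Nnat, Wnt7b and Dppa5a. Members and lists were chosen with earlier results of these data known. Alternatives were the pseudocount (0.1), no filter, upper-quartile and equal-sum scaling, other sets of libraries, a replicate block, leaving out each library, the fold rule alone (1.5 at 3 FPKM), and other windows and limits for promoters. Values of a few genes and some sequences are not reported here.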

Additional observations from a re-analysis of the deposited data

Results flagged for a closer look

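Among the values of the 7 long-term fPSC libraries given beside EpiSCs and mESCs, Tnc had a library that stood apart. Its highest library was at 0.682 FPKM and the next at 0.252 FPKM, a gap of 0.669 of the whole range. The median was 0.0774 FPKM, and the EpiSC libraries, at 70.2 and 88.4 FPKM, were far above all 7. Values of 9 items were examined in this way, and chance flags about 1 in 20 groups.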

How the results depend on the processing

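Absolute depth is unknown, and with 2 libraries a group the calls lean on spread borrowed from the other groups. Leaving out 1 library gave 4013 to 4724 calls, 1979 to 2549 of them higher and 1861 to 2462 lower, where fewer genes were tested and the lone library was assumed to vary like the others. The replicate numbers were not shown to pair the libraries (correlations of deviations -0.20, 0.20 and -0.13). A fit of mESCs, EpiLCs and EpiSCs with the replicate block gave 6685 calls (3137 higher, 3548 lower) against 6746 without the block, and a crossed pairing, chosen after seeing the data, gave 7059. Scaling to an equal sum of FPKM gave 2440 lower genes. For promoters of genes higher and lower in EpiSCs, methylated shares were 10.1% and 19.1% with a 500 bp window and 9.03% and 18.1% at a limit of 0.7, and H3K27me3 shares were 13.1% and 7.26% with a 1000 bp window and 6.12% and 3.802% in the top 5%. The direction between higher and lower genes was the same in each. Among named genes that were not called, signs changed. At an equal sum of FPKM the log2 change was 0.12 for Dnmt1, 0.02 for Etv5, 0.0655 for Grhl2, 0.15 for Il6st and 0.0035 for Meg3, and it was 0.0171 for Grhl2 with upper-quartile scaling. Leaving out 1 library gave -0.77 to 0.037 for Cldn7, -0.35 to 0.0326 for Dnmt1, -0.0326 to 0.22 for Gapdh, -0.0404 to 0.0275 for Grhl2, -0.40 to 0.17 for Il6st, -0.0048 to 0.36 for Mycn and -0.71 to 0.0676 for Otx2. Thy1 lost its call without filtering (adjusted p = 0.0539) and in 3 of 4 leave-one-out fits, and Etv4 in 4 of 4.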

Other observations

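Lists of other lineages were tested only in part. Of 39 Hox genes 6 passed the filter, 2 higher and 4 lower in EpiSCs, and without either mESC library 2 were tested, both higher, while without either EpiSC library 1 was higher. Hoxc12, a posterior Hox gene, was at 8.55 and 5.59 FPKM in mESCs and listed at 0 in EpiSCs. Of the trophoblast list 5 genes were tested. Cdx2 (0.290 and 0.293 FPKM against 1.66 and 2.197 FPKM) and Hand1 were higher, and Tfap2c (23.4 and 19.4 FPKM against 2.79 and 3.47 FPKM) was lower. Without either EpiSC library 3 of the list were tested and 0 were higher. Of the hematopoietic list only Runx1 and Cd34 were tested and both were higher, Runx1 rising from 0.0219 and 0.0267 FPKM to 10.3 and 12.7 FPKM. Of 7 primitive endoderm genes 1 was higher, Dab2, and 1 lower, Lama1, a laminin chain, from 23.4 and 18.3 FPKM to 2.78 and 3.06 FPKM.

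Genes of antigen presentation were mostly higher in EpiSCs, and the part of feeder RNA in this was not tested. Of 9 tested genes of the MHC class I list 7 were higher and 0 lower (median 1.86), with B2m, the light chain, at 16.8 and 16.5 FPKM in mESCs and at 75.8 and 88.8 FPKM in EpiSCs. Of 16 genes of the G1 and Myc list 5 rose and 2 fell (median 0.11), so that a smaller share was called than the 47.8% of all genes tested. Of the falls 1 was called without mESCs replicate 1 or EpiSCs replicate 1. Myc rose from 0.829 and 0.669 FPKM to 20.1 and 35.8 FPKM and Ccnd2, cyclin D2, from 0.0503 and 0.182 FPKM to 52.2 and 33.3 FPKM, while Cdkn2a, which encodes the inhibitor p16 and Arf, fell from 55.6 and 69.4 FPKM to 8.47 and 14.5 FPKM. Mycn was at 42.6 and 55.1 FPKM against 52.5 and 57.4 FPKM and was not called. Of 22 cholesterol synthesis genes 2 were higher and 3 lower, where 23.1% of all genes tested were higher and 24.7% lower. With libraries scaled to an equal sum of FPKM 7 of the list were higher and 2 lower.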
